A study of Homo sapiens with 6 samples.

Results

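The 39 HOX genes were the rows of the expression table whose symbol was HOXA, HOXB, HOXC or HOXD followed by a number, out of 57150 listed genes. They comprised 11 HOXA, 10 HOXB, 9 HOXC and 9 HOXD genes. The study used K562 cells, a human leukemia line with an erythroid character, and transfected 3 cell pools with siRNAs that co-target αCP1 and αCP2 (KD) and 3 pools with control siRNAs (CTRL). The study's text describes the control siRNAs CTRL-1 and CTRL-2 as directed at GLD-2, a transcript unrelated to αCP, and CTRL-3 as non-targeting. For KD, it reports fewer distinct siRNAs than pools, so KD pools shared an siRNA. The study also states that 4 of the 6 samples came from an earlier analysis, which cannot be told apart from the others in the group columns. All 6 pools were harvested 72 h after transfection, and their RNA was sequenced as 100-nt paired reads. The deposited table holds 1 FPKM (fragments scaled to transcript length and to the depth of the library) and 1 estimated count per gene and group, so the differences below have no replicate check and no test was run. In such bulk RNA, fewer cells that use a gene and less of its RNA per cell cannot be told apart.

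HOX genes encode homeodomain transcription factors that lie in clusters on 4 chromosomes, HOXA on 7, HOXB on 17, HOXC on 12 and HOXD on 2. In the embryo the low-numbered end of each cluster is used toward the head and the high-numbered end toward the tail and the tips of the limbs. Cells keep much of this pattern after development, which is why the set of HOX genes in use is read as a record of where a cell came from. Genes with the same number in different clusters are paralogs, copies of one ancestral gene. In blood formation, HOXA9 and HOXB4 are known for their use in stem and progenitor cells, and HOX levels fall as blood cells mature.

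The column labels were checked first against the targeted mRNAs. PCBP1, which encodes αCP1, had an FPKM of 184 (KD) and 188 (CTRL), and PCBP2, which encodes αCP2, had 531 and 342. PCBP1 was thus nearly equal in the columns (log2 ratio of -0.03) and PCBP2 was higher in the column named KD. The study states that depletion was seen in mRNA and protein, which these values did not show. KD and CTRL below are only the names that the columns carry. U2AF2, which encodes U2AF65, the large subunit of the splicing factor U2AF, was not a target of these siRNAs. It had 12.98 and 85.3, from 351 and 2393 counts, a log2 ratio of -2.63, and is named after its values were seen. In separate experiments the study depleted U2AF65 in K562 cells with other siRNAs. Whether these columns have a link to those experiments was not tested. The labelled cell type was checked against markers in the same columns. Of 12 erythroid markers, 2 (KD) and 3 (CTRL) reached an FPKM of 1, namely EPOR (3.55 and 5.08), HBG2 (4.33 and 1.63, a log2 ratio of 1.02) and, in the CTRL column, NFE2 (0.502 and 1.03). The defining regulators GATA1, TAL1 and KLF1 were listed at 0 in both. Of 8 epithelial markers, 6 reached an FPKM of 1 in each column, led by KRT18 (2309 and 1748), KRT8 (1505 and 819) and KRT7 (540 and 604). EPCAM had 3.94 and 3.26, whereas CDH1 (0.363 and 0.426) stayed under 1 and KRT19 was at 0 in both. These are named outside the naming rule. The summed FPKM of the erythroid list was 8.74 and 8.03, and that of the epithelial list was 4375 and 3198. Nearly all of the epithelial sum came from the 3 keratins KRT18, KRT8 and KRT7. The median FPKM was 8.22 and 11.9 for the epithelial list and 0 in both columns for the erythroid list. Of 8 other blood markers, 1 passed in a column, ITGA2B in CTRL (0.983 and 1.88), and PTPRC, SPI1 and CD3E were at 0. The columns thus went against the erythroid label and did not show the loss of both targeted mRNAs that the KD label implies. Whether the deposited table holds the K562 libraries that the labels describe is therefore in doubt. The HOX values below describe the table's columns and cannot be taken as levels in K562 cells.

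Because paralogs are alike in sequence, the homeobox, the 180 bases that encode the DNA-binding homeodomain, is shown for paralog groups 10 and 13, in which an abundant HOXC gene stands beside a near-silent HOXD gene. Group 11 has the same contrast and is not printed. The lines below give codons 31 to 60 of the homeobox, 90 bases of coding exon that span the recognition helix, 5′ to 3′ on the coding strand, read from GRCh37 (the same coordinates as the study's hg19). In group 10, capitals mark bases that differ from HOXC10.
HOXC10 (chr12:54383093-54383182, plus strand): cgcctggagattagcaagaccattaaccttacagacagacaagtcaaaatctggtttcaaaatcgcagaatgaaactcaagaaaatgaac
HOXA10 (chr7:27211566-27211655, minus strand): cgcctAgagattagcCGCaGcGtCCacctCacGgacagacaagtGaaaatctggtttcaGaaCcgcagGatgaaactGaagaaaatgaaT
HOXD10 (chr2:176983822-176983911, plus strand): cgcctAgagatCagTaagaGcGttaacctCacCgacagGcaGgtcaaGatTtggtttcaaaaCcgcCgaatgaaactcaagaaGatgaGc
In group 13, capitals mark bases that differ from HOXC13.
HOXC13 (chr12:54338915-54339004, plus strand): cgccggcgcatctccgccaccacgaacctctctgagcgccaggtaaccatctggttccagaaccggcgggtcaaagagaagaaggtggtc
HOXA13 (chr7:27237841-27237930, minus strand): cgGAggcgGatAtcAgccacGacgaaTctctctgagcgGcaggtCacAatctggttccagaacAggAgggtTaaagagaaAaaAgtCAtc
HOXB13 (chr17:46804182-46804271, minus strand): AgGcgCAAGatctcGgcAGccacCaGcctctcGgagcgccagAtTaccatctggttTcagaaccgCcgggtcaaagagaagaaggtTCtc
HOXD13 (chr2:176959342-176959431, plus strand): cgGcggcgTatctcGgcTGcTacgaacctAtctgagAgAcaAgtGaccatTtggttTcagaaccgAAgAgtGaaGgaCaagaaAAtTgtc

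HOXA10 and HOXD10 differed from HOXC10 at 16 and 15 of these 90 bases. In group 13, HOXA13, HOXB13 and HOXD13 differed from HOXC13 at 17, 18 and 22 bases. Over the whole homeobox, the 42 pairs of paralogs shared a median of 81.7% of their bases (range 69.4% to 90.6%), and the longest identical run in any such pair was 51 bases, in HOXB3 and HOXD3. No run reached the 100-nt length of a read. Across all GENCODE transcripts, 0 of the 39 genes shared an exact 100-base stretch with a HOX gene of another cluster. The study's mapping allowed mismatches, and reads that map to a paralog with mismatches are not covered by this exact check. 

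An FPKM of at least 1 was reached by 21 of the 39 HOX genes in each column, and by 20 in both. The same level was reached by 23.8% (KD) and 24.0% (CTRL) of all listed genes, and by 57.2% of the 19322 listed protein-coding genes in each column. The HOX genes as a set were thus detected about as often as other protein-coding genes, and the result lies in which ones were detected. Only HOXC5 (2.82 and 0.971) and HOXD8 (0.775 and 1.17) were on different sides of the threshold in the columns. Just under it was HOXA4 in KD (0.899), and just above it were HOXD8 in CTRL and HOXD9 in both (1.63 and 1.31).

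**Figure D1:**
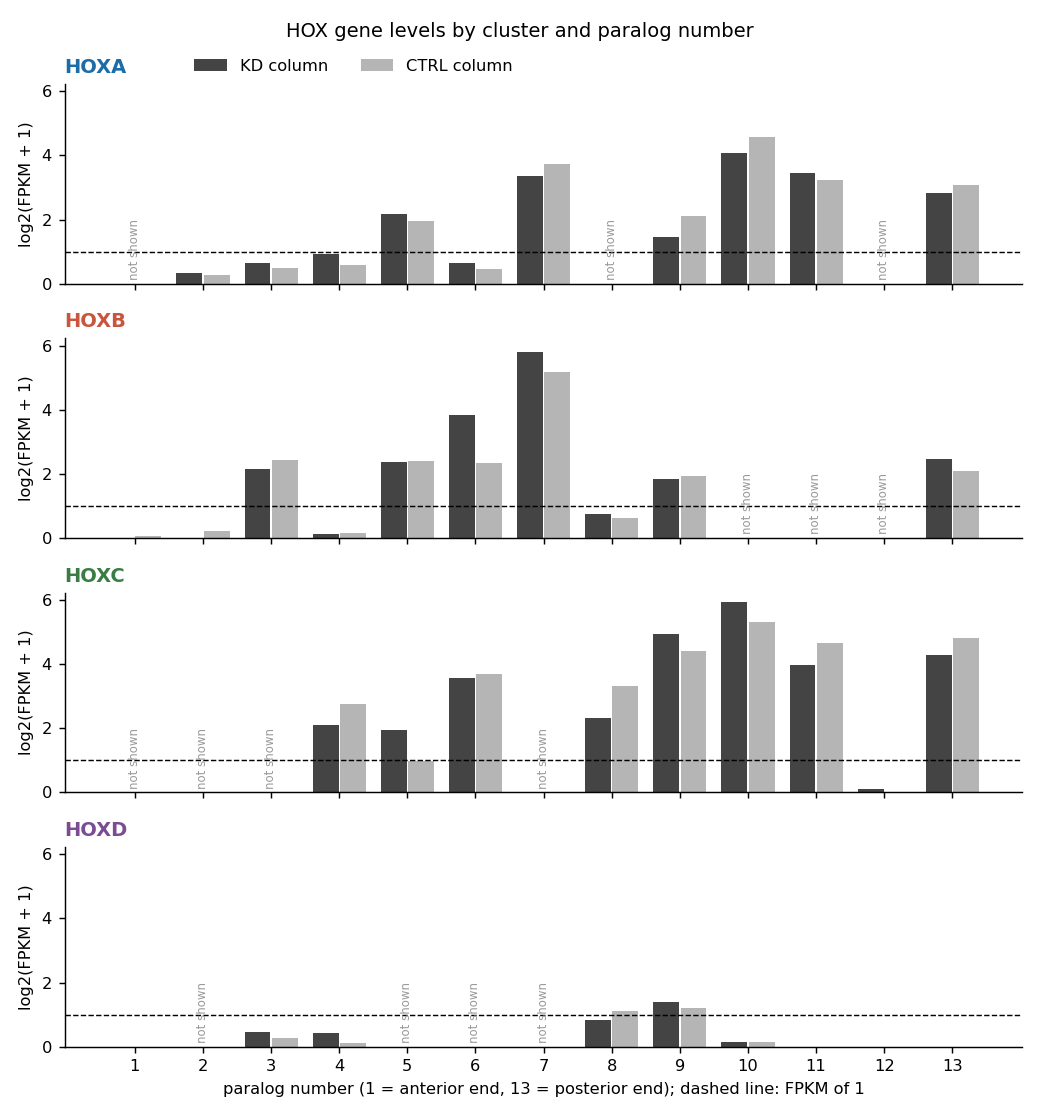
Level of 38 of the 39 HOX genes, as log2(FPKM + 1), by cluster (panels) and paralog number (horizontal axis), with 1 bar for the KD column and 1 for the CTRL column; the dashed line marks an FPKM of 1 and "not shown" a number without a gene or without a reported value. HOXA, HOXB and HOXC each have bars above the line up to paralog 13, whereas in HOXD the line is passed only at paralogs 8 and 9, at 8 in the CTRL column alone.

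Use of the clusters was lowest at the low-numbered end, and the middle and high-numbered genes were detected about equally often. Of the 12 genes with numbers 1 to 4, 2 reached an FPKM of 1 in each column. Of the 11 genes numbered 5 to 8, 8 did so in each column, and of the 16 genes numbered 9 to 13, 11 did so in each column. The genes numbered 9 to 13 held 59.1% (KD) and 62.6% (CTRL) of the summed HOX FPKM, those numbered 5 to 8 held 37.5% and 32.4%, and those numbered 1 to 4 held 3.44% and 5.03%. The median FPKM was 4.02 and 4.03 for the genes numbered 5 to 8 and 3.57 and 3.29 for those numbered 9 to 13. Neither column had a gene of paralog group 2 at an FPKM of 1. The anterior genes HOXA2, HOXB1, HOXB2 and HOXD1 had at most 6 counts in a column.

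HOXC was the most used cluster. It held 51.2% (KD) and 54.1% (CTRL) of the summed HOX FPKM, and 8 (KD) and 7 (CTRL) of its 9 genes reached an FPKM of 1. HOXC10 (ENSG00000180818; chromosome 12, 54378849 to 54384063), a gene of the lumbar region and hindlimb, had the highest level of any HOX gene in both columns. Its FPKM was 60.1 (KD) and 38.6 (CTRL), from 1154 and 697 counts. Among protein-coding genes, 89.95% and 86.6% had a lower FPKM than HOXC10.

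The neighbours of HOXC10 were also abundant. HOXC9, which acts in thoracic patterning, had an FPKM of 29.5 and 20.4. HOXC11 (chromosome 12, 54366910 to 54371427) had 14.6 and 24.3, and HOXC13, the terminal gene of the cluster, known for its part in hair and nail formation, had 18.3 and 27.4. HOXC12, which lies between them (chromosome 12, 54348687 to 54352740), had 3.43 estimated counts in the KD column and less than 1 in the CTRL column. The posterior end of the cluster was therefore broken by a single near-silent gene, as the plot of levels by paralog number shows. The lower-numbered members were less abundant: HOXC8 had 4.02 and 8.96, HOXC6 had 10.8 and 12.0, HOXC5 had 2.82 and 0.971, and HOXC4 had 3.26 and 5.81.

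In HOXA, 6 of 11 genes reached an FPKM of 1, the same 6 in both columns. All 4 genes with numbers 9 to 13 did so and HOXA2, HOXA3 and HOXA4 did not. HOXA10 (chromosome 7, 27210224 to 27219880), which acts in the uterus and in blood progenitors, was the most abundant in the cluster, with an FPKM of 15.99 (KD) and 22.8 (CTRL). HOXA11, needed for the forelimb and the uterus, had 9.96 and 8.48, and HOXA13, the most posterior gene of the cluster and needed for the digits and the genital tract, had 6.18 and 7.43. HOXA9 was lower than these, at 1.77 and 3.35, from 34 and 56 counts. HOXA7 had 9.25 and 12.2, HOXA5 had 3.48 and 2.92, and HOXA6 between them had 0.572 and 0.365, from 3 and 4 counts.

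In HOXB, 6 of 10 genes reached an FPKM of 1, again the same 6 in both columns, and 1 of them held most of the signal. HOXB7 (ENSG00000260027; chromosome 17, 46684594 to 46710934) had an FPKM of 55.1 (KD) and 35.3 (CTRL), from 861 and 682 counts, second to HOXC10 in both columns. HOXB6 had 13.3 and 4.03, HOXB5 had 4.14 and 4.32, HOXB3 had 3.46 and 4.40, and HOXB9 had 2.57 and 2.80. HOXB13, a gene of the prostate and distal gut that lies apart from the rest of its cluster (chromosome 17, 46802125 to 46806112), had 4.58 and 3.23, from 190 and 134 counts. HOXB4, used in blood stem cells, had 0.0884 and 0.111, from 4 and 5 counts, and HOXB8, next to HOXB7 and HOXB9, had 0.677 and 0.533.

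HOXD was close to silent, with 1.16% (KD) and 1.14% (CTRL) of the summed HOX FPKM. HOXD9 (1.63 and 1.31, from 46 and 37 counts) and HOXD8 (0.775 and 1.17, from 15 and 19 counts) were its most abundant genes. HOXD1, HOXD11, HOXD12 and HOXD13 had 0 counts in both columns. A count of 0 allows up to 3 counts, which is 0.219 (KD) and 0.257 (CTRL) CPM, for counting error only. HOXD13, which shapes the digits, was thus not detectable at this depth while its paralogs HOXA13, HOXB13 and HOXC13 were all above an FPKM of 3. The genes that remain, HOXD3, HOXD4 and HOXD10, had between 1 and 8 counts in each column.

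**Figure D2:**
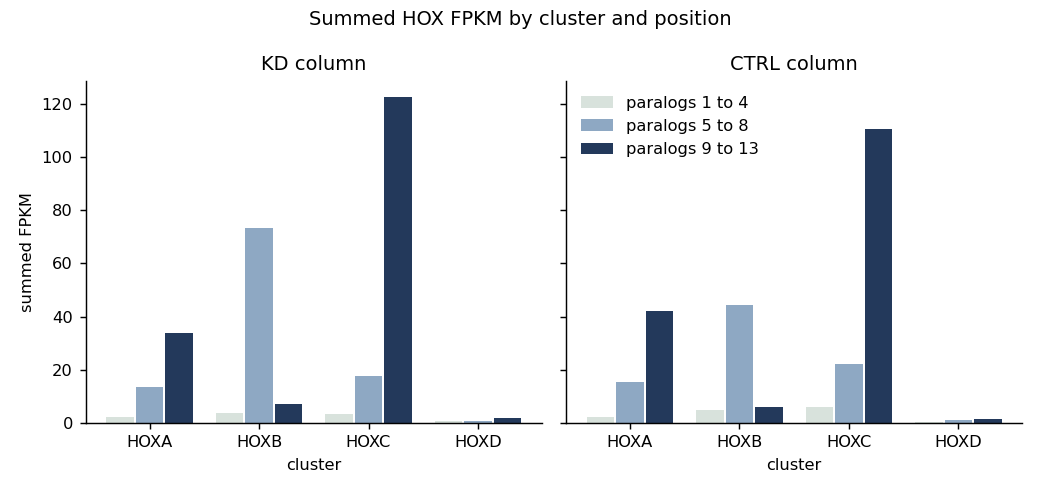
Summed FPKM of the HOX genes by cluster (horizontal axis) and by paralog number (bar shade) in the KD and CTRL columns. The tallest bar in both columns is HOXC paralogs 9 to 13 (123 and 111), followed by HOXB paralogs 5 to 8 (73.3 and 44.2) and HOXA paralogs 9 to 13 (33.9 and 42.1).

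Set out by paralog group, copies of the same gene were used unequally. Group 9 was the only one in which all 4 copies reached an FPKM of 1 in both columns, with HOXC9 the highest and HOXD9 the lowest of the 4. In group 7 both copies, HOXA7 and HOXB7, reached an FPKM of 5 in both columns. In groups 10 and 11 the HOXA and HOXC copies were used and the HOXD copy was not, with HOXD10 at 0.111 in each column and HOXD11 at 0. In group 12 no copy reached an FPKM of 1. In group 4, HOXC4 passed while HOXA4, HOXB4 and HOXD4 did not.

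Noncoding RNAs of the clusters were used most in HOXA and HOXC, and few of those in HOXB and HOXD were detected. Of 19 such RNAs with a row of their own, 13 (KD) and 12 (CTRL) reached an FPKM of 1. They comprised 5 of 6 in HOXA, 5 of 5 in HOXC, 1 of 5 in HOXB in each column (not the same one), and 2 (KD) and 1 (CTRL) of 3 in HOXD. Those in HOXB and HOXD rested on few counts: HOXB-AS3 had 0 (KD) and 6 (CTRL) and HOXB-AS5 had 14 and 9. HOXD-AS2 had 13 and 0, and HAGLROS had 25 and 15. In the other clusters, HOXC-AS1 (9 and 2 counts) and HOXA-AS2 (13 and 9) also passed on few counts. These are named outside the naming rule, and HOXB and HOXD cannot be ranked on their noncoding RNAs. HOTAIRM1, which lies next to HOXA2, had an FPKM of 24.5 (KD) and 21.5 (CTRL) although HOXA2 was under 1. HOXC-AS3 had 15.2 and 21.4. HOXC-AS2, antisense to HOXC9, had 7.81 and 2.79, a log2 ratio of 1.22 in FPKM and 0.54 (0.01 to 1.09) in count shares. Among the 14 noncoding and flanking genes whose FPKM averaged 1 or higher, it was the only one past 1 in FPKM. That ratio was reached by 8.51% of all genes tested. With the trend with GC content and length removed, HOXC-AS2 was at 0.67. The following 3 were named after their values were seen. HOTAIR, a long noncoding RNA of the posterior HOXC cluster known from skin fibroblasts of the lower body, had 9.60 and 6.23, from 202 and 153 counts. HOTTIP, transcribed from beyond HOXA13, had 1.32 and 1.44, and HOXA11-AS had 15.96 and 9.37. The 6 miRNA precursors of the clusters were listed at 0. Beside the clusters, the flanking genes EVX1 and EVX2 were at 0. MTX2, a gene next to HOXD that encodes a mitochondrial protein, had an FPKM of 30.3 and 20.3.

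The study compared αCP1/2 siRNA with control siRNA, and the HOX genes were compared here between the columns named KD and CTRL. The pattern of use was alike in the columns: across the 39 genes, Spearman's rho between the FPKM values was 0.967, a description of genes measured by the same pipeline that are not independent replicates. Ratios were taken as log2 of (FPKM + 1) in KD over that in CTRL, a scale that understates the change of low genes, for the 21 HOX genes whose FPKM averaged 1 or higher. Among them, 9 ratios were above 0 and 12 below, and the median was -0.09, against 0.01 over all 13741 genes tested. A log2 ratio of 1 or more was found for 1 HOX gene, HOXB6, against 8.51% of all genes tested, and -1 or less for 0, against 3.27%. In count shares, without a pseudocount, 1 HOX gene was at 1 or more, HOXC5, against 7.20% of all genes tested, and 4 were at -1 or less, HOXB3, HOXC4, HOXC8 and HOXC11, against 10%.

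**Figure D3:**
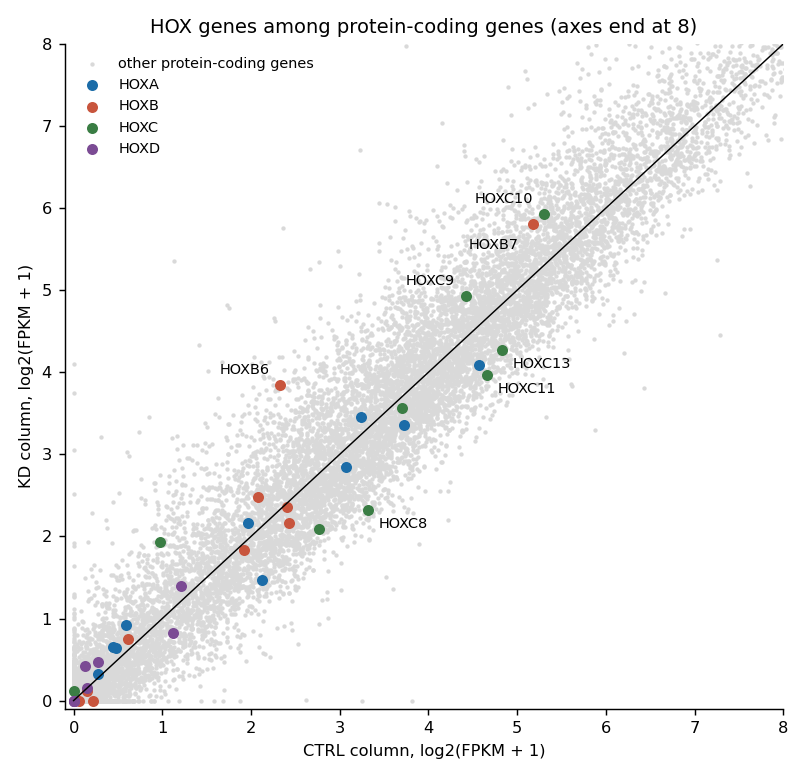
Each of 38 HOX genes (coloured by cluster) among the other protein-coding genes (grey), with log2(FPKM + 1) in the CTRL column on the horizontal and in the KD column on the vertical axis; the line marks equal values and both axes end at 8. HOXB6 lies farthest above the line among the HOX genes (log2 ratio of 1.51) and HOXC8 farthest below it (-0.99).

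HOXB6 had an FPKM of 13.3 (KD) and 4.03 (CTRL), a log2 ratio of 1.51. Its estimated counts were 137 and 66, and divided by each column's total they gave a log2 ratio of 0.82 (95% exact binomial interval 0.39 to 1.27, counting error only), under the threshold of 1. The FPKM differed by 3.31-fold and the counts by 2.06-fold, and HOXB6 shares 17.6% of its 100-base stretches with HOXB3 or HOXB-AS3. HOXB3 went the other way, with 23 and 48 counts and a log2 ratio of count shares of -1.29 (-2.08 to -0.55).

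Just inside the limit of 1, HOXC5 had a log2 ratio of 0.95, from 46 and 16 counts, and shares 65.3% of its 100-base stretches with annotated transcripts that also span neighbouring genes. HOXC8, which is known in the thoracic region, had a log2 ratio of -0.99, from 162 and 361 counts, and shares none. Its count shares gave -1.39 (-1.66 to -1.11). HOXC8 was past -1 when the pseudocount was 0.1 (-1.14), when counts were scaled to CPM and given a pseudocount of 1 (-1.31), when ratios were centred on the all-gene median (-1.004) and when the trend with GC content and length was removed (-1.06).

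The abundant posterior genes did not move in 1 direction. HOXC10 was higher in KD, with a log2 ratio of 0.63 and of 0.50 in count shares (0.36 to 0.64), while HOXC11 was lower, with -0.70 and -1.003 (-1.17 to -0.83). HOXC13 was lower as well, with -0.55 and -0.81 (-0.97 to -0.64), as was HOXA10, with -0.49 and -0.92 (-1.12 to -0.71). On the scale of count shares the median over all genes tested was -0.21. The counting interval of 6 of the 21 HOX genes lay above this median, that of 10 lay below it and that of 5 included it. Among all genes tested, the interval lay above it for 33.1% and below it for 31.2%, so intervals that exclude the median were common in the table at large. The 10 lower genes were HOXA7, HOXA9, HOXA10, HOXA13, HOXB3, HOXC4, HOXC6, HOXC8, HOXC11 and HOXC13. The 6 higher genes were HOXB6, HOXB7, HOXB13, HOXC5, HOXC9 and HOXC10.

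**Figure D4:**
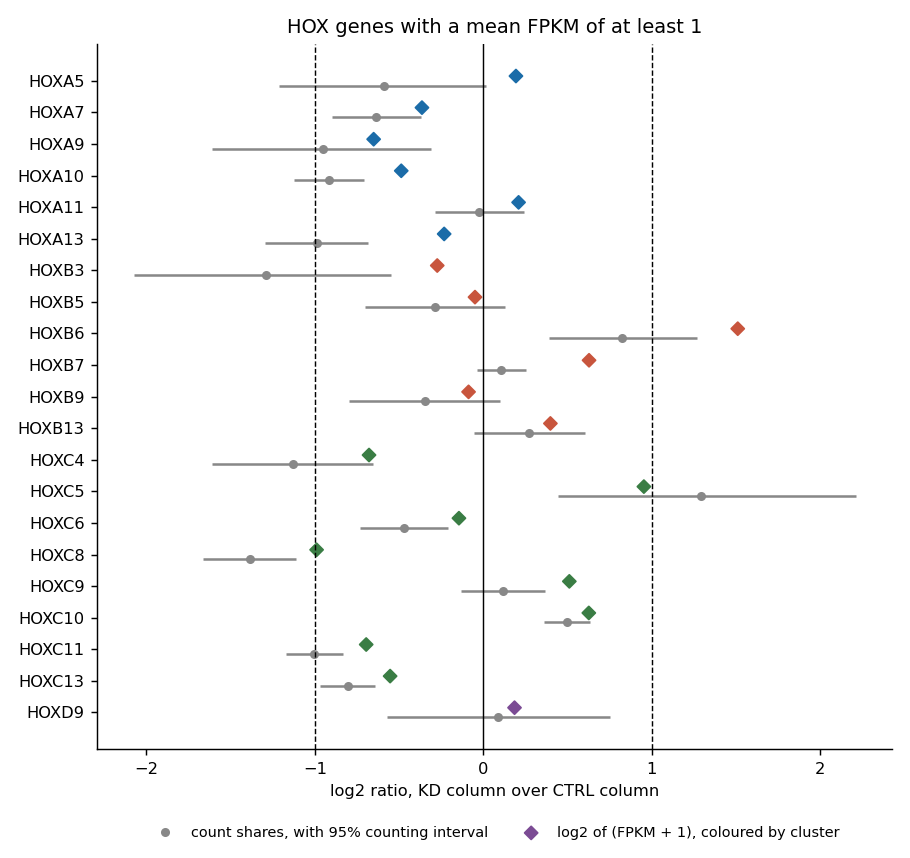
Log2 ratio of the KD column over the CTRL column for the 21 HOX genes whose FPKM averaged 1 or higher, from FPKM (diamonds, coloured by cluster) and from count shares (grey circles with 95% exact binomial intervals, which cover counting error only); dashed lines mark -1 and 1. HOXB6 alone has a diamond past 1, and HOXC8 has a circle past -1 with its whole interval (-1.66 to -1.11).

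Overlap of annotated genes touches part of these values. In the table the counts of 24 of the 39 HOX genes were whole within 0.01 in both columns, and the other 15 had a fraction. By the annotation, 19 of the 39 genes shared no 100-base stretch with another gene and 20 shared some. The highest shares were those of HOXC5, of HOXA7 (61.1%, with the antisense gene HOXA-AS3) and of HOXD1 (52.4%). HOXC11, HOXC8, HOXB7, HOXB13 and HOXA13 shared none, and HOXC10 shared 3.05%. The TruSeq RNA kit V1 named in the labels does not mark strand, so reads of a gene and of its antisense partner cannot be told apart.

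HOX proteins bind DNA with cofactors of the TALE class of homeodomain proteins, and most of these were present. Of 11 TALE genes, 10 had an FPKM of at least 1 in both columns, and PKNOX2 was at 0. TGIF1 had an FPKM of 35.9 (KD) and 39.6 (CTRL), PBX2 had 26.1 and 22.4, and MEIS3 had 13.3 and 7.32. MEIS1, the cofactor best known with HOXA9 in leukemia, had 3.32 and 3.66, and is named here outside the naming rule. All 10 log2 ratios lay between -1 and 1, and their median was -0.15.

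The chromatin regulators that keep HOX clusters silent or active were also measured. Of 23 Polycomb genes, which repress HOX clusters, 22 had an FPKM of at least 1 in both columns and PHC1 did not. The most abundant were RBBP7 (316 and 414), PHF19 (225 and 62.6) and RBBP4 (111 and 117). A log2 ratio of 1 or more was found for PHF19 (1.83), PCGF2 (1.36) and CBX8 (1.09), which in count shares were at 0.89, 0.92 and 0.97. With the trend with GC content and length removed, PHF19 was at 1.52 and CBX8 at 0.75, and PCGF2 had no value. None of the 22 FPKM ratios was at -1 or less. Among all genes tested, 8.51% had an FPKM ratio of 1 or more and 3.27% of -1 or less. EZH2, EED and SUZ12, core genes of the complex that methylates lysine 27 of histone H3, are named here outside the naming rule. Their log2 ratios were -0.57, -0.94 and -0.80. In count shares these were -0.76, -1.08 and -1.10. On that scale 0 of the 22 were at 1 or more and 2, EED and SUZ12, were at -1 or less. Among all genes tested, 7.20% were at 1 or more in count shares and 10% at -1 or less. With the trend removed, EZH2, EED and SUZ12 were at -0.40, -0.73 and -0.59. RBBP4 and RBBP7 had FPKM ratios of -0.07 and -0.39. The median FPKM ratio of the 22 was 0.06. Of 13 trithorax-group and related genes, which keep HOX genes active, all 13 had an FPKM of at least 1, led by DPY30 (104 and 141), PSIP1 (42.3 and 55.8) and WDR5 (43.1 and 39.6). DOT1L alone had a log2 ratio of 1 or more (1.35), which was 1.54 in count shares and 0.77 once a fitted trend with GC content and length was subtracted. MLL, the founding member of the group (now KMT2A), had an FPKM of 15.3 and 17.9. The part of these genes in the HOX levels was not tested.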

How the data were processed

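The deposited table gives, for each gene, an FPKM and an estimated count per group. Per the labels and the study's methods, the authors mapped reads of 3 libraries per group with TopHat 1.4.1 to hg19 and Ensembl transcripts and computed FPKM with Cuffdiff 2.2.0. How libraries were combined is not given in the sources used here. Columns of the authors' own comparison (fold change, test statistic, p-value, FDR) and of group averages, maxima and minima were not used. The estimated counts summed to 13699340 (KD) and 11680567 (CTRL), the depth behind all values. Each total lay below the number of mapped read pairs that the study reports for any single library. The cause of this gap was not tested. The HOX genes and the gene lists were chosen with earlier results of these data known. Ratios used a pseudocount of 1 and a mean FPKM of at least 1. The planned limma test needs separate libraries, which the table does not give. Alternatives were another FPKM threshold, pseudocount or filter, CPM in place of FPKM, centring and removal of the trend. Intervals are 95% exact binomial (Clopper-Pearson) intervals of rounded counts and cover counting error only. Symbols of the lists were matched through Ensembl IDs of a gene name table, otherwise by symbol. The trend with GC content and length was fitted over the 13298 tested genes with both values. Coordinates, biotypes, homeoboxes and shared 100-base stretches came from GRCh37 with GENCODE release 44, which holds all 39 HOX IDs. Named genes were all HOX genes and, of each list, the 3 most abundant and up to 4 past a log2 ratio of 1; exceptions are stated. The values of 1 HOX gene are not reported here. Functions were tested on simulated data. Computations used scipy 1.17.1, biopython 1.88, pandas 2.3.3, numpy 2.4.6 and matplotlib 3.10.9 under Python 3.11.15.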

Additional observations from a re-analysis of the deposited data

How the results depend on the processing

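With an FPKM of at least 5 in place of 1, 11 (KD) and 12 (CTRL) HOX genes passed, with 2 and 1 in HOXB, 5 in HOXC for KD, and 0 in HOXD in each column. An FPKM of at least 0.5 gave 2 HOXD genes in KD. No other count by cluster moved by over 1.5 times. HOX genes with a log2 ratio of 1 or more numbered 2 with a pseudocount of 0.1 (HOXB6 and HOXC5) and 0 with counts scaled to CPM (the column total) with a pseudocount of 1. Those at -1 or less numbered 1, HOXC8, with a pseudocount of 0.1, with CPM, centred on the all-gene median, and after subtracting a fitted trend with GC content and length. The cause was not tested. The median HOX ratio was -0.12, 0, -0.19, -0.44, -0.10 and -0.33 under a pseudocount of 0.1, no filter, a mean FPKM of at least 5, CPM, centring and the trend removed. CPM moved the median of all genes to -0.18. Of 84 ratios of single genes under alternatives, 68 stayed within their counting interval, 16 moved further, and 4 changed sign: HOXA5 (-0.47) and HOXA11 (-0.03) with CPM, and HOXA11 (-0.0055) and HOXD9 (-0.46) with the trend removed.

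No paired analysis was possible because each group has 1 column, and no library was left out for the same reason. Whether a column draws on all libraries of its group is not given. Depth limits the low genes: 24 (KD) and 25 (CTRL) of the 39 HOX genes had at least 10 counts.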

Other observations

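Other homeobox genes related to HOX were mostly silent. Of 10 HOX-like genes, among them the pancreatic gene PDX1 and the GSX genes of the forebrain, 1 reached an FPKM of 1 in a column, MNX1 in KD (1.66 against 0.711 in CTRL, from 34 and 13 counts), and 7 were at 0 in both columns. Of 13 genes that act upstream of HOX genes, 6 (KD) and 7 (CTRL) reached an FPKM of 1. The most abundant were GMNN (93.9 and 135), RXRB (34.3 and 19.8) and CTCF (15.5 and 20.5), an insulator protein that divides HOX clusters into domains. The CDX genes, which activate posterior HOX genes in the embryo, were not detectable at this depth beyond 1 count of CDX1 in CTRL. Of the retinoic acid receptors, RARA (7.05 and 5.22) and RARG (7.61 and 14.6) were present and RARB (0.164 and 0.473) was not. CYP26B1, which degrades retinoic acid, had 45 and 101 counts. All 7 log2 ratios of FPKM lay between -1 and 1, and their median was -0.38. In count shares RARG was at -1.18 (-1.41 to -0.96) and CYP26B1 at -1.40 (-1.94 to -0.88). Both were past -1, as were 10% of all genes tested on that scale, and both intervals included -1. With the trend with GC content and length removed, RARG was at -1.35 and CYP26B1 at -0.96. RARG, RARA and CYP26B1 are named outside the naming rule.

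For several HOX genes the FPKM and the count differed in their ratio between columns. HOXA5 had 42 counts in KD and 54 in CTRL but an FPKM of 3.48 and 2.92, so the direction depends on the measure. HOXA13 had 143 and 242 counts, a count-share log2 ratio of -0.99 (-1.30 to -0.68), and an FPKM log2 ratio of -0.23. For HOTAIR, the count-share log2 ratio was 0.17 (-0.14 to 0.48), against -1.003 for HOXC11.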
